A study of Homo sapiens with 3 samples.

Results

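Edge TEAD regions are the TEAD binding regions that touched a single H3K27ac region while their own summit, the position of highest enrichment, lay outside it. They were chosen by position alone, from the authors' peak lists of 786-O cells: the TEAD interval had to share at least 1 bp with exactly 1 H3K27ac interval, and the TEAD summit had to fall beyond the edge of that interval. On chromosomes 1 to 22 and X, 3117 of 35241 TEAD regions met this rule, a share of 8.84% (95% Wilson interval 8.55 to 9.15%). They were 12.9% of the 24109 TEAD regions that touched H3K27ac. Of those 24109, 19.2% had the summit outside every H3K27ac region, which is part of the rule and is read no further.

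786-O is a human clear cell renal carcinoma line that lacks a functional VHL tumour suppressor. The series profiled it by chromatin immunoprecipitation and sequencing (ChIP-seq) for the transcription factor TEAD and for the histone mark H3K27ac, with input chromatin as the third library. The labels give no treatment for any of the 3 groups and name the antibody target only as TEAD, without the paralogue. Cells were grown in the same medium and fixed in 1% formaldehyde for 10 min, and libraries were size-selected to 300 to 700 bp. Each group had 1 library, so nothing below has a replicate check, no p-value is given, and intervals cover counting error among regions or reads only. Neighbouring regions are not independent, so these intervals may be too narrow.

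TEAD proteins bind DNA and activate genes mainly through the Hippo pathway co-activators YAP and TAZ, which carry no DNA-binding domain of their own. H3K27ac is acetylation of a lysine in the tail of histone H3, written by the acetyltransferase CBP and its paralogue at active promoters and enhancers. A transcription factor usually occupies DNA that is free of nucleosomes, while the mark sits on the nucleosomes to its sides. A factor's summit can therefore lie in a dip or at the border of the acetylated signal. Edge TEAD regions were defined by position alone, as touching a single H3K27ac region with the summit outside it. Another H3K27ac region can lie close by on the other side of the summit without being touched. Nucleosome positions were not measured, so whether edge TEAD summits lie in nucleosome-free DNA was not tested.

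The other classes of TEAD regions serve for comparison. Interior TEAD regions touched exactly 1 H3K27ac region with the summit inside it (19042 regions). Bridging TEAD regions touched at least 2 H3K27ac regions with the summit outside them (1500), and unmarked TEAD regions touched none (11132). Fold is the authors' deposited enrichment of the summit relative to local background. Summit pileup is the number of reads at that position, which was worked out from the deposited fold and p-value.

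The edge TEAD summits lay close to the acetylated region, at a median of 105 bp from its edge. The interquartile range was 54 to 164 bp and the full range 1 to 713 bp. Within 50 bp lay 717 of the summits, within 100 bp 47.9%, within 200 bp 85.7% and within 300 bp 96.9%. Counts per 25 bp were nearly level over the first 150 bp, between 336 and 396 regions, and fell to 58 regions between 250 and 275 bp. The rule bounds this distance, because a TEAD region that reaches the H3K27ac region must span it, and the edge TEAD regions had a median width of 472 bp (379 to 588 bp, interquartile range). They shared a median of 134 bp with the H3K27ac region (73 to 206 bp), which was 29.9% of their width.

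**Figure D1:**
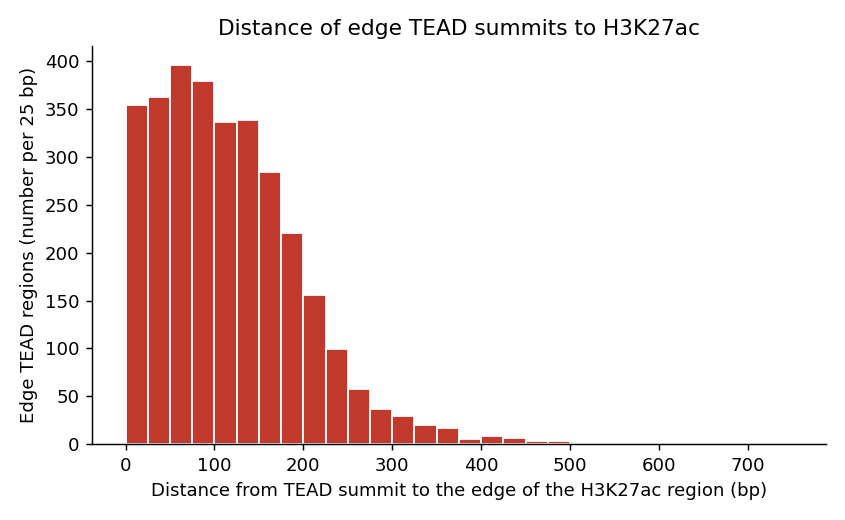
Number of edge TEAD regions (y axis, per 25 bp) against the distance in bp from the TEAD summit to the edge of the H3K27ac region it touched (x axis). Bars stay between 336 and 396 regions over the first 150 bp and fall to 58 regions between 250 and 275 bp; the median is 105 bp.

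Edge TEAD summits were spread evenly over the 2 sides of H3K27ac. Of the edge TEAD summits, 49.2% (47.4 to 50.9%) lay on the higher-coordinate side. The median distance to the edge was 105 bp on the lower side and 105 bp on the higher side, with median folds of 7.62 and 7.62. Summits farther from the edge belonged to stronger TEAD regions. The median fold was 6.54 for the 354 summits within 25 bp, 7.40 for the 675 between 100 and 150 bp, 10.5 for the 350 between 200 and 300 bp and 10.8 for the 96 beyond 300 bp. The median TEAD width grew alongside, from 415.5 bp in the nearest to 700.0 bp in the farthest of these bins, so the part of width in this trend was not tested.

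The farthest summit lay 713 bp beyond its H3K27ac region, on chromosome 2 (75327235 to 75328207, hg19). That TEAD region was weak, at 7.49-fold from 17 summit reads (exact Poisson counting interval 4.54 to 11.7), and it shared 50 bp with an H3K27ac region of 593 bp. The second, also on chromosome 2 (145853605 to 145854509), lay 559 bp beyond its H3K27ac region and only 477 bp from the next one. The third, on chromosome 11 (20052498 to 20053458), lay 545 bp out with a fold of 22.9 (18.1 to 28.5) beside an H3K27ac region of 3.66-fold. All 3 shared at most 130 bp with the H3K27ac region.

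On the open side, away from the H3K27ac region touched, the next H3K27ac region was either very near or far. The median distance from the summit was 13602 bp (12195 to 15130 bp), with an interquartile range from 717 to 54210 bp. The next region lay within 500 bp of 674 summits, 21.6% (20.2 to 23.1%), and within 1000 bp of 825 summits, 26.5% (24.9 to 28.05%). Between 1000 and 5000 bp lay 326 more, 10.5%, while 54.7% (52.9 to 56.4%) had no H3K27ac region within 10000 bp on that side. A like spread was seen over all gaps between neighbouring H3K27ac regions, measured from edge to edge. Of these, 28.0% were at most 1000 bp, 43.9% at most 5000 bp and 53.7% at most 10000 bp. With only regions of at least 5-fold in both lists the median was 26928 bp, and after joining H3K27ac regions over gaps of up to 1000 bp it was 27395 bp. Interior TEAD summits were measured beyond their nearer edge. Within 500 bp the next region was found at 21.6% of edge and 3.32% of interior TEAD summits, and within 1000 bp at 26.5 and 8.13%. Within 10000 bp the order was turned, with 45.3% (43.6 to 47.1%) of edge and 50.6% (49.9 to 51.3%) of interior TEAD summits. An interior summit lies farther from the gap by its own distance to the edge, a median of 814 bp. Measured from the H3K27ac edge instead, gaps of at most 500 bp were found at 17.7% of edge and 18.6% of interior TEAD regions. Gaps of at most 1000 bp were found at 25.8 and 24.7%, and gaps of at most 10000 bp at 45.2 and 52.5%.

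The gap that held the edge TEAD summit was compared with the gap on the other flank of the same H3K27ac region. The facing gap had a median of 13687 bp (interquartile range 858 to 54383 bp) and the opposite gap one of 17471 bp (3726 to 58060 bp). Gaps of at most 1000 bp made up 25.8% (24.3 to 27.4%) of the facing flanks and 14.1% (13.0 to 15.4%) of the opposite flanks. Over all 52644 gaps between neighbouring H3K27ac regions that share was 28.0%, so the facing flanks were near the background and the opposite flanks below it. Facing gaps clustered between 316 and 422 bp, which held 7.54% of them against 1.96% of the opposite and 4.80% of all gaps. The rule bounds the facing gap from below, since a TEAD region in a shorter gap would touch both neighbours and count as bridging. Bridging regions that touched exactly 2 H3K27ac regions had a median gap of 237 bp around the summit. With only regions of at least 5-fold in both lists, the median facing gap exceeded the opposite one by 661.5 bp, and after joining H3K27ac regions over gaps of up to 1000 bp by 2275.5 bp.

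**Figure D2:**
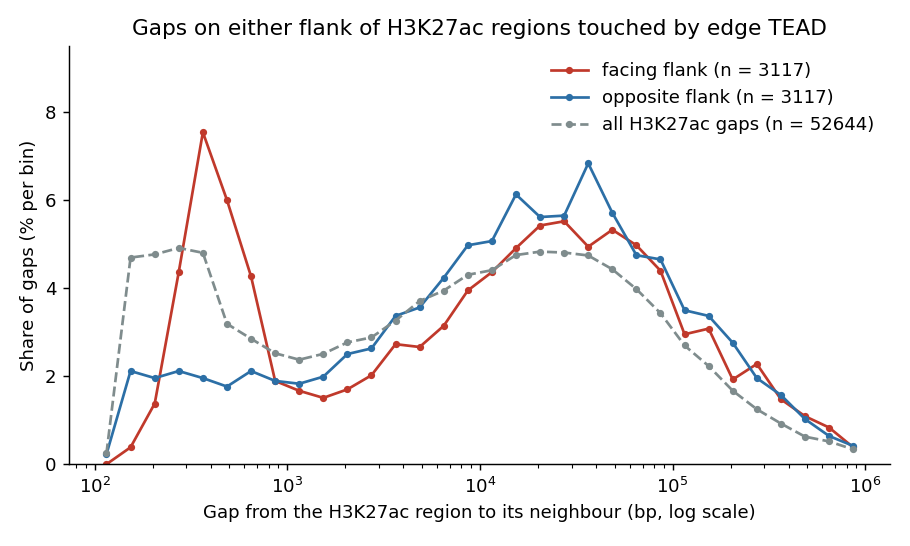
Share of gaps (y axis, % per bin) against gap length (x axis, bp, log scale) for the gap facing the edge TEAD summit, the gap on the opposite flank of the same H3K27ac regions and all gaps between neighbouring H3K27ac regions. The facing flank peaks at 7.54% between 316 and 422 bp, where the opposite flank stands at 1.96%, and all 3 curves lie between 4.36 and 6.83% from 10000 to 42170 bp.

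The 805 edge TEAD regions with a facing gap of at most 1000 bp sat in a narrow break of the acetylation, with H3K27ac on either side although only 1 side was touched. Their facing gap had a median of 411 bp (322 to 551 bp, interquartile range), and the summit stood 94 bp from the touched region and 311 bp from the next one. In 94.7% (92.9 to 96.0%) the summit was nearer to the touched region, and its median position was 22.3% of the way across the gap. The rule requires the TEAD region to reach the touched region and stop short of the next, so these positions describe the selection. The H3K27ac region touched was the stronger of the pair in most cases: the next one was stronger in 37.3% (34.0 to 40.7%) and wider in 40.9% (37.5 to 44.3%). Median H3K27ac fold was 5.95 for the region touched and 4.96 for the next. The median TEAD fold was 6.79 in these short gaps and 8.01 at the 2312 edge TEAD regions with longer facing gaps. Median TEAD widths were 425 and 487 bp, and since a wide TEAD region in a short gap touches both neighbours, the part of the rule in this difference was not tested.

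The nearest next region was 63 bp from the summit, on chromosome 1 (94430318 to 94430586), at a TEAD region of 2.88-fold (1.72 to 4.57) with 16 reads at the summit. On chromosome 13 (110983007 to 110983461) the next region was 87 bp away, and on chromosome 5 (149877220 to 149877507) 93 bp away, with TEAD folds of 4.51 (2.55 to 7.48) and 3.56 (2.35 to 5.18). All 3 were weak regions. At the other extreme stood an edge TEAD region on chromosome 5 (27217268 to 27217694), 13.0-fold, whose next H3K27ac region on the open side was 5515137 bp away. Those on chromosome 13 (72865259 to 72866214; 18.0-fold) and chromosome 5 (45385563 to 45386170; 13.9-fold) followed, with 5356839 and 4576186 bp. Each of these 3 leaned on an H3K27ac region of at most 523 bp.

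The H3K27ac regions at which TEAD stood just outside were narrow and weak beside all H3K27ac regions, and close in size to those that no TEAD region touched. The 3117 edge TEAD regions touched 3089 different H3K27ac regions, whose width had a median of 617 bp (interquartile range 435 to 944 bp) and whose median fold was 5.52. The 30701 H3K27ac regions touched by no TEAD region had medians of 659 bp and 5.31-fold, and all 52667 H3K27ac regions 950 bp and 6.54-fold. Interior TEAD regions lay in H3K27ac regions with a median width of 2459 bp and a median fold of 13.0. H3K27ac fold reached 10 at 419 of the 3089 regions, 13.6% (12.4 to 14.8%), against 30.5% of all H3K27ac regions. Width enters the rule, because a narrow region leaves more summits outside it. Per 100 H3K27ac regions of a width decile, edge TEAD regions numbered 7.09 in the narrowest (299 to 355 bp), 10.3 in the fourth (561 to 720 bp) and 1.80 in the widest (2994 bp and above). At equal width the median fold of the regions touched went both ways against those that no TEAD region touched. It was higher in the 6 narrower deciles, 5.56 against 4.99 in the fourth, lower in the next 3, 8.03 against 9.33 in the seventh, and higher in the widest, 14.8 against 14.4.

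Within the H3K27ac region, the acetylation summit leaned towards TEAD. It lay on the TEAD side of the region's midpoint at 1901 of the 3117 edge TEAD regions, 61.0% (59.3 to 62.7%). For interior TEAD regions it lay on the side of the edge nearer to the TEAD summit in 53.0% of all cases, and in 49.0% when weighted to the widths that edge TEAD regions touched. The position of the H3K27ac summit was not used by the rule. The lean depended on width: it was 45.6% (40.7 to 50.7%) in H3K27ac regions of 299 to 355 bp, 65.1% (61.0 to 69.0%) at 561 to 720 bp and 77.9% (73.0 to 82.1%) at 951 to 1253 bp. In the widest regions, of 2994 bp and above, it was 46.3% (36.6 to 56.3%), and the interval of that share includes the 55.3% of interior TEAD regions. Lower-side TEAD summits showed it in 63.5% (61.1 to 65.8%) and higher-side ones in 58.4% (55.9 to 60.9%).

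**Figure D3:**
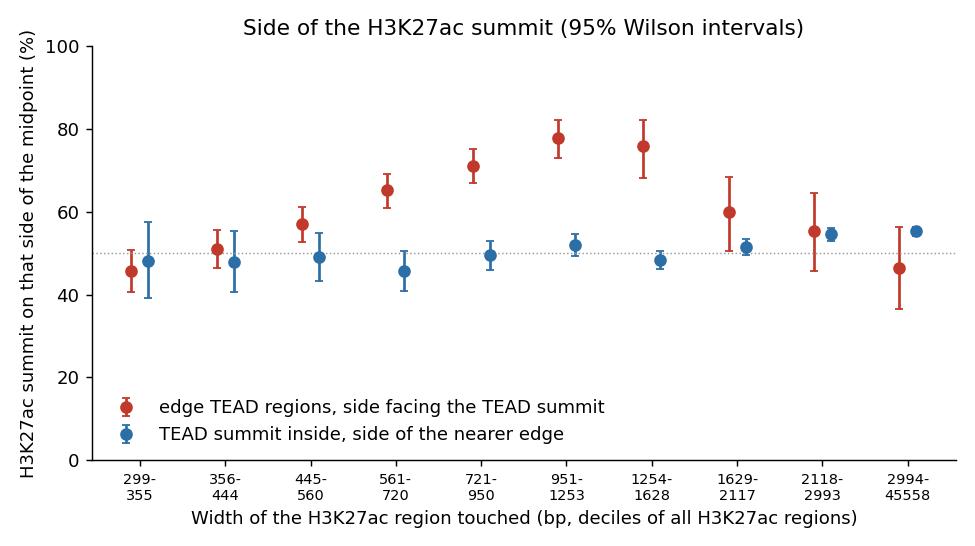
Share of H3K27ac summits on the TEAD side of the midpoint of their region (y axis, %, with 95% Wilson intervals) by width decile of the H3K27ac region (x axis, bp), for edge TEAD regions and for interior TEAD regions, where the side is that of the nearer edge. For edge TEAD regions the share climbs to 77.9% at 951 to 1253 bp and is 46.3% in the widest decile, while for interior TEAD regions it stays between 45.7 and 55.3%.

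Edge TEAD summits kept a narrow range of distances from the H3K27ac summit. The median distance was 383 bp (377 to 389 bp) with an interquartile range of 300 to 514 bp, against 402 bp and 253 to 698 bp for interior TEAD summits. Between 300 and 450 bp lay 40.7% (39.0 to 42.4%) of edge TEAD summits and 23.5% (22.9 to 24.1%) of interior ones. Only 50 edge TEAD summits, 1.60%, stood within 150 bp, against 11.2% of interior TEAD summits. A summit outside the region cannot be nearer than the region's own edge, so the rule shapes the near end of this distribution. At equal H3K27ac width the median distance was longer for edge than for interior TEAD summits in each of the 10 deciles. It was 323 against 122 bp in the second narrowest, 454 against 258.5 bp in the sixth and 2300.0 against 694 bp in the widest. The rule puts edge TEAD summits outside the region and interior ones inside it, so this order describes the selection. The H3K27ac regions touched had median widths of 618 bp for edge and 2459 bp for interior TEAD regions. The part of that width in the narrower range of edge TEAD summits was not tested.

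**Figure D4:**
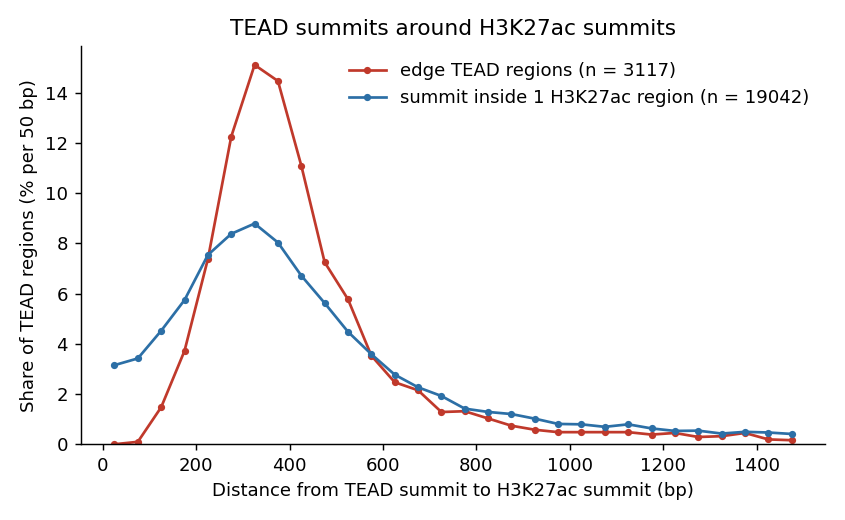
Share of TEAD regions (y axis, % per 50 bp) against the distance in bp between the TEAD summit and the summit of the H3K27ac region it touches (x axis), for edge and interior TEAD regions. The edge curve peaks at 15.1% between 300 and 350 bp, where the interior curve stands at 8.79%, and is at most 0.0962% per bin below 100 bp, where the interior curve is above 3%.

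TEAD fold at the edges was middling and at equal width exceeded that of interior TEAD regions. The median fold of the edge TEAD regions was 7.62 (7.41 to 7.84), against 7.10 (7.07 to 7.21) for interior, 10.7 (10.2 to 11.2) for bridging and 6.83 (6.77 to 6.93) for unmarked TEAD regions. A fold of at least 10 was reached by 1046 edge TEAD regions, 33.6% (31.9 to 35.2%), near the 30.4% of all TEAD regions. Median summit pileups were 27 reads at edge, 26 at interior, 42 at bridging and 21 at unmarked TEAD regions, and the median recovered backgrounds were 2.64, 2.81, 2.81 and 2.10 reads. Edge TEAD regions had the higher median fold than interior ones in each of the 10 width deciles, by 0.147 at 269 to 293 bp and by 5.51 at 656 to 807 bp, with a weighted mean difference of 1.47. Median summit pileups of edge and interior TEAD regions were equal at 269 to 293 bp (16 reads), at 294 to 335 bp (18) and from 808 bp (55). In the other deciles the edge pileup was higher, 61 against 43.5 reads at 656 to 807 bp. The edge background was equal or lower in each of the 10 deciles, and its part in the fold difference was not tested. Against unmarked TEAD regions, the edge median fold was lower in the 8 narrower deciles and higher in the 2 widest, 17.1 against 14.9 at 656 to 807 bp and 14.5 against 11.9 above. Among TEAD regions of at least 10-fold alone, the median of edge minus interior regions was -0.031 without regard to width.

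**Figure D5:**
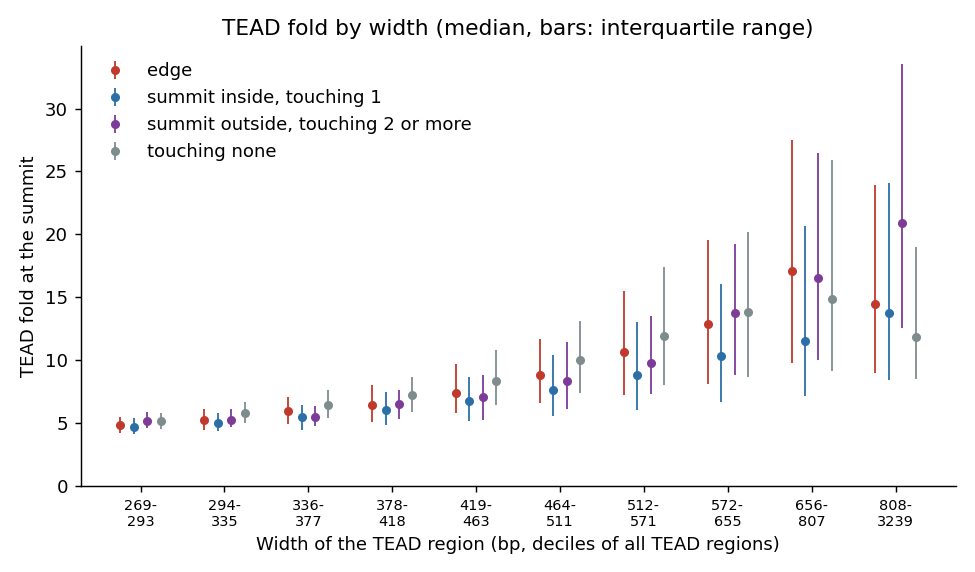
TEAD fold at the summit (y axis; points are medians, bars interquartile ranges) by width decile of the TEAD region (x axis, bp) for edge, interior, bridging and unmarked TEAD regions. Edge medians lie above interior medians in all 10 deciles, with the widest separation, 17.1 against 11.6, at 656 to 807 bp.

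Edge TEAD regions occurred at every strength of TEAD binding. They made up 7.86% (7.02 to 8.79%) of the decile of lowest TEAD fold and 10.02% (9.07 to 11.1%) of the highest. Divided into quintiles by their own fold, the strongest (14.2-fold and above) stood a median of 135 bp from the edge and the weakest 88.5 bp. A short facing gap of at most 1000 bp was found at 17.7% of the strongest quintile and 34.5% of the weakest. Width bounds the distance to the edge, and a wide TEAD region in a short gap touches both neighbours and counts as bridging. The part of width and of the rule in these differences was not tested. The lean of the H3K27ac summit was 57.8% (53.9 to 61.6%) in the strongest and 64.4% (60.6 to 68.1%) in the weakest, with overlapping intervals. The H3K27ac regions beside the strongest quintile were no stronger, with a median H3K27ac fold of 5.42 against 5.93 beside the weakest.

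The 10 edge TEAD regions of highest fold reached 68.3 to 89.6-fold, with 156 to 391 reads at the summit over a recovered background of 1.30 to 3.51 reads. Beside them the acetylation was modest: H3K27ac fold ran from 3.53 to 11.02 and was under 10 at 9 of the 10, and the H3K27ac regions were 357 to 1555 bp wide. None of these H3K27ac regions held another TEAD summit. Both counts were near the shares over all edge TEAD regions. H3K27ac fold reached 10 at 13.6% of all H3K27ac regions touched, and another TEAD summit lay inside at 8.18% of all edge TEAD regions. The highest fold lay on chromosome 11 (34364515 to 34365328), with 310 reads and a fold of 89.6 (79.9 to 100.1). Its summit stood 94 bp below an H3K27ac region of 1555 bp whose own summit was 1384 bp away. The next region on the open side was 23720 bp off, while the gap on the opposite flank was 462 bp.

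The second of them, also on chromosome 11 (131211658 to 131212856), had the most reads, 391, and a fold of 87.0 (78.6 to 96.0). Its summit stood 329 bp from an H3K27ac region of 624 bp, and no other H3K27ac region lay within 307757 bp on the open side or 143059 bp on the opposite flank. On chromosome 4 (90582545 to 90583243) an 84.9-fold TEAD region (74.3 to 96.6) stood beside an H3K27ac region of only 3.53-fold, with gaps of 91169 and 189830 bp on its flanks. Both were strong TEAD sites next to a lone H3K27ac region. Its fold was 5.72 on chromosome 11, near the median of 5.52 for the H3K27ac regions touched, and below that median on chromosome 4. A facing gap of at most 1000 bp was seen at 1 of the 10, on chromosome 5 (167241694 to 167242452, 80.8-fold, 70.4 to 92.2). H3K27ac lay 65 bp from its summit on the touched side and 638 bp on the open side. Such gaps were found at 25.8% of all edge TEAD regions and 17.7% of their strongest fold quintile, so the count of 1 is read no further.

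Of the remaining 6, the one on chromosome 15 (30708052 to 30708880; 80.3-fold) stood 367 bp from an H3K27ac region of 357 bp, with the next region 2197 bp away. A second chromosome 4 region (5039465 to 5040351; 73.2-fold) lay 54 bp from its H3K27ac region. A chromosome 11 region at 69378943 to 69379688 (70.8-fold) stood 224 bp from an H3K27ac region of 514 bp, and the next on the open side, 73570 bp off, was 7643 bp wide at 23.9-fold. The chromosome 8 region (40930472 to 40931194; 70.3-fold) was the one beside H3K27ac of 11.02-fold, with an opposite gap of 314 bp. Those at chromosome 11, 130253309 to 130254251 (68.6-fold), and chromosome 17, 39957436 to 39958215 (68.3-fold), stood 227 and 131 bp from the edge. The counting intervals of neighbours in this order overlapped. Only the first stood clear of any other, with an interval above those of the last pair, on chromosomes 11 and 17.

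Few of the touched H3K27ac regions held a TEAD summit of their own. Another TEAD summit lay inside at 255 of the 3117 edge TEAD regions, 8.18% (7.27 to 9.20%), against 30.4% of all H3K27ac regions and 16.8% of H3K27ac regions weighted to the same widths. With only TEAD regions of at least 10-fold kept, for the other summits as well, the share was 2.49%. That filter removes other summits, so this value is not comparable with the shares above. Counting all TEAD summits, the share was 6.42% in the strongest fold quintile of edge TEAD regions. After joining H3K27ac regions over gaps of up to 1000 bp the share was 13.3%. At equal width it was lower for edge TEAD regions than for all H3K27ac regions in each of the 10 deciles. It was 0.0% against 2.20% at 299 to 355 bp and 0.928% against 8.90% at 561 to 720 bp. In wider regions it was 13.5% against 37.8% at 1254 to 1628 bp, 49.1% against 50.5% at 1629 to 2117 bp, 51.4% against 65.4% at 2118 to 2993 bp and 82.1% against 87.1% at 2994 bp and above. The edge TEAD region itself covered a median of 134 bp of the H3K27ac region, and TEAD regions were at least 269 bp wide and did not overlap. A narrow H3K27ac region thus leaves little room for another TEAD summit, and the part of the rule in this difference was not tested. Other TEAD summits were more often found on the acetylated side than on the open side: within 5000 bp at 23.7% (22.2 to 25.2%) against 13.6% (12.5 to 14.9%), and within 1000 bp at 4.23% against 1.03%. The rule puts H3K27ac on the acetylated side of every edge TEAD region, while 54.7% had none within 10000 bp on the open side. The part of the rule in this order was not tested.

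Paired arrangements were counted among the 3089 H3K27ac regions touched and the 52644 gaps between neighbouring H3K27ac regions. At 28 H3K27ac regions an edge TEAD region stood at both ends, and in 43 gaps 2 edge TEAD regions faced each other from opposite sides. The numbers to be expected from the share of ends with an edge TEAD region were not worked out. Neither count is therefore read as few or many. The rule leaves no place for 2 at the same end, since TEAD regions do not overlap and each would have to span that edge. The pair with the highest lower fold flanked an H3K27ac region of 552 bp and 4.83-fold on chromosome 1 (212686821 to 212687372), with TEAD folds of 27.7 (22.2 to 34.2) on the lower and 14.6 (11.4 to 18.6) on the higher side. The next pair flanked a region of 1246 bp on chromosome 2 (74135219 to 74136464), at 9.99-fold (6.84 to 14.1) on the lower and 34.7-fold (29.9 to 40.2) on the higher side. The third flanked a region of 1180 bp on chromosome 22 (30309006 to 30310185), at 9.46- and 8.93-fold, values whose counting intervals overlapped.

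Regions just inside and just outside each threshold of the rule were set side by side as a description. The 227 edge TEAD regions that overlapped H3K27ac by at most 25 bp had a median fold of 6.13, and the 176 unmarked TEAD regions that ended within 25 bp of H3K27ac one of 6.76. For the 354 edge TEAD summits at most 25 bp outside the median fold was 6.54, and for the 376 interior TEAD summits at most 25 bp inside it was 7.10. The 126 edge TEAD regions that ended within 25 bp of a second H3K27ac region had 7.57, and the 142 bridging ones that overlapped the second by at most 25 bp 7.38.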

How the data were processed

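The authors deposited 1 peak list for TEAD and 1 for H3K27ac, each from a single library. The input library entered no comparison. The submitters' processing notes name fastp, Bowtie2 2.4.5, MACS2 and build hg19. Parameters, control and peak threshold were not given in the sources used here. Each peak carries the authors' deposited fold at the summit over local background (a ratio), −log10 p and −log10 q values, the summit's offset from the peak start, and a score, which was not used.

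Analyses kept chromosomes 1 to 22 and X (35241 TEAD, 52667 H3K27ac), leaving out 123 and 183 on chromosome Y. Coordinates are hg19, counted from 1. Pileup and local background were recovered as the whole-number pileup, with its background, that gives the deposited fold and Poisson −log10 p; 100% of regions met both within 0.002. Absolute depth is unknown; the median summit pileup was 24 reads in either list. Shares have 95% Wilson intervals, medians order-statistic intervals, and pileups exact Poisson intervals; all cover counting error only. Analyses used Python 3.11.15, pandas 2.3.3 and scipy 1.17.1, and the classing was tested on simulated lists.

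The rule for the edge TEAD regions, the comparisons and the named regions (10 of highest fold, 3 farthest from the edge, 3 with the nearest and 3 with the farthest next region, 3 pairs) was chosen with earlier results of these data known. Alternatives were stricter fold or q, more overlap, a summit farther out, joined H3K27ac regions and removal of high background. Motifs, genes and sequences were not analysed here, since the references at hand are of another build.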

Additional observations from a re-analysis of the deposited data

Results flagged for a closer look

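Chromosome Y was outside the rule and outside every comparison above. Among its 123 TEAD regions, 12 touched 1 H3K27ac region with the summit outside, a share of 9.76% (95% Wilson interval 5.67 to 16.3%) beside the 8.84% of the chromosomes analysed. They come from data outside the main measurement, which is why they are listed, and were left out of all values given here.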

How the results depend on the processing

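Each of 8 results was recomputed under 8 alternatives, 1 of them (joining H3K27ac over 1000 bp) and 2 of the results (the distance to the H3K27ac summit and its lean) chosen after seeing the data. Joining H3K27ac regions over gaps of up to 150 bp and removing regions of background over 10 reads left every one of them within its interval. As reported, the median facing minus opposite gap was -3784 bp. At −log10 q of at least 5 in both lists, the share of edge TEAD regions was 8.25%, the distance to the next H3K27ac region 19570 bp, the facing minus opposite gap -1464.5 bp and the summit-to-summit distance 398 bp. At 5-fold in both lists these were 7.22%, 26928 bp, 661.5 bp (turned) and 422 bp, with another TEAD summit inside at 9.26% and the H3K27ac lean at 63.6%. For TEAD regions of at least 10-fold, the share was 9.75%, the edge distance 128 bp and the next region 16619 bp away. Edge minus interior fold was -0.031 (turned) and the lean 58.5%. Another summit lay inside at 2.49%, where the other summits also had to reach 10-fold. An overlap of at least 50 bp gave 8.22%, 91 bp to the edge, 9555 bp to the next region, a gap difference of -6941 bp, a fold difference of 0.866 and 374 bp between summits. A summit at least 50 bp outside gave 6.84%, 131 bp to the edge, a fold difference of 0.768 and 399 bp between summits. Joining over 1000 bp gave 6.57%, 110 bp, 27395 bp, a gap difference of 2275.5 bp (turned), another summit inside at 13.3% and 396.5 bp between summits. Within width deciles the fold difference was 1.47 against 0.516 as reported. Thresholds change which regions count by construction; beyond that the cause was not tested. No paired analysis was possible because each group had 1 library. The planned motif window was not run. At a median summit pileup of 24 reads, counting error limits the order of single regions.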

Other observations

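Chromosome X had the highest share of edge TEAD regions among its TEAD regions, 11.5% (9.40 to 13.9%), and chromosome 6 the lowest, 6.80% (5.82 to 7.93%). Chromosome X also had the shortest median distance to the next H3K27ac region on the open side, 7506 bp. Its share of facing gaps of at most 1000 bp was the highest, at 32 of 89 edge TEAD regions, 36.0%. The lowest share was on chromosome 18, at 14 of 82, 17.1%, and over all edge TEAD regions it was 25.8%. These are the extremes of all chromosomes analysed, and how far counting error alone spreads them was not tested. The median recovered background of edge TEAD regions was 1.51 reads on chromosomes X and 13 and 3.40 reads on chromosomes 7 and 8. DNA copy number was not measured, and its part in these differences was not tested.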
